A study of Mus musculus with 33 samples.

Results

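From the VK3 family at the JK-proximal end of the mouse Igk locus, 9 genes are described here, namely IGKV3-1, IGKV3-2, IGKV3-3, IGKV3-4, IGKV3-5, IGKV3-7, IGKV3-9, IGKV3-10 and IGKV3-12. They were taken by name, are 9 of the 163 VK genes listed for each library, and leave out 4 VK3 rows described further below. Their use in VK-JK recombination was measured by VDJ-seq, in which joined VK-JK segments are captured from sheared genomic DNA with JK primers and assigned to a VK gene. The 20 Igk libraries came from bone marrow cells of C57BL/6 mice between 4 and 5 weeks old, with 4 Wapl+/+ and 4 Wapl∆P1,2/∆P1,2 libraries of pre-B cells (sorted as Kit–CD25+ cells without IgM or IgD) and 6 libraries for either genotype of pro-B cells (sorted as Kit+CD25– cells without IgM or IgD). The mutant mice are homozygous for a Wapl allele without the Pax5-binding site P1 in the promoter and without a downstream region that holds the P2 site. The Wapl+/+ mice carry neither deletion. Pro-B and pre-B cells are named from the labels, since joints in genomic DNA hold no expression of marker genes. A list of H3K27ac peaks came from 1 sample of Rag1(Cre/Cre) pro-B cells, which lack functional Rag1 and cannot rearrange their immunoglobulin genes. The values of each library were rescaled to a total of 100 over all VK genes, so that every level below is a percentage of the VK-JK joints of that library.

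The kappa light chain of the B cell receptor is made by joining 1 VK gene to a JK element, which takes place mainly in pre-B cells and at a low frequency already in pro-B cells. The Rag recombinase cuts at recombination signal sequences (RSSs), each a heptamer and a nonamer that are held apart by a spacer, and pairs a short-spacer RSS at the VK gene with a long-spacer RSS at the JK element. VK genes in the orientation of the JK elements join by deletion of the DNA between them, whereas VK genes in the opposite orientation join by inversion. Wapl releases the cohesin ring from chromatin and thereby limits how far cohesin extrudes loops, and Pax5 represses the Wapl gene in early B cells through its promoter. The comparisons below address whether VK genes at short distance from the JK elements are used differently when this repression is lost.

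The members share their RSS, which is printed first because it is the sequence that Rag reads at each of them. The sequences were read from mm9 on the strand of each gene, and begin with the last 12 bases of the V segment, followed by the heptamer and the nonamer in capitals with the 12-base spacer between them. IGKV3-1, IGKV3-10 and IGKV3-12 stand for the 8 members with one and the same RSS, IGKV3-9 is the member with a different spacer, and IGKV8-16 and IGKV6-15 are neighbours outside the family.
IGKV3-1: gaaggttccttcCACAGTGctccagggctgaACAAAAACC
IGKV3-10: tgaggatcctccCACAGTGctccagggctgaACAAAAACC
IGKV3-12: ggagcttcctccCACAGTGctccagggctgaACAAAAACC
IGKV3-9: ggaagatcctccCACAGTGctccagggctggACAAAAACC
IGKV8-16: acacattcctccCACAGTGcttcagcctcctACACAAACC
IGKV6-15: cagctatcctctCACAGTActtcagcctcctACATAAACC
The RSS of JK1 at chr6:70672517-70672555 follows on the same strand, with its nonamer and heptamer in capitals around a 23-base spacer, and its capitals are the complements of those at the VK3 genes.
JK1: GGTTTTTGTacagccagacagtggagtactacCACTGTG

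All 9 members had the heptamer CACAGTG and the nonamer ACAAAAACC, the heptamer directly after the annotated end of the V segment, and 8 of them had the same 28 bases throughout. Among the 98 VK genes of the GENCODE annotation for mm9, 24.5% held both this heptamer and this nonamer. None of the 89 VK genes other than the 9 members held the whole 28 bases. The nonamer was present at 0 of the 6 neighbours on the distal side (IGKV6-13, IGKV6-14, IGKV6-15, IGKV8-16, IGKV6-17 and IGKV8-19). All 9 members lay on the strand of the JK elements, against 38.8% of all annotated VK genes and 1 of the 6 neighbours. The 8 members with an annotated first exon carried the octamer ATTTGCAT, the known promoter element of immunoglobulin genes, between 83 and 85 bases before that exon. In the 250 bases before the first exon, this octamer (searched on both strands) was found at 72.3% of the 83 VK genes with 2 annotated exons. For IGKV3-7 the annotation has no first exon, and its promoter was not searched.

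The members are spread over chr6:70468244-70654171 (mm9), in the order of their numbers. IGKV3-1 had its RSS 18.4 kb from JK1, followed by IGKV3-2 at 23.5 kb, IGKV3-3 at 35.0 kb, IGKV3-4 at 50.2 kb and IGKV3-5 at 58.7 kb. After a wider gap came IGKV3-7 at 114.5 kb, IGKV3-9 at 133.8 kb, IGKV3-10 at 149.3 kb and IGKV3-12 at 203.7 kb. In each of the 8 genes with 2 annotated exons, the leader exon is followed by an intron and by the exon that encodes the variable domain and ends at the RSS. IGKV3-5 carries the name Gm16774 in that annotation and was matched through its RefSeq synonym. Over the last 299 bases of the V segment, the 36 pairs of members were between 83.9% (IGKV3-7 and IGKV3-9) and 98.0% identical, the plot of identities showing the pairs IGKV3-5 with IGKV3-10 and IGKV3-7 with IGKV3-12 (96.7%) as the closest.

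**Figure D1:**
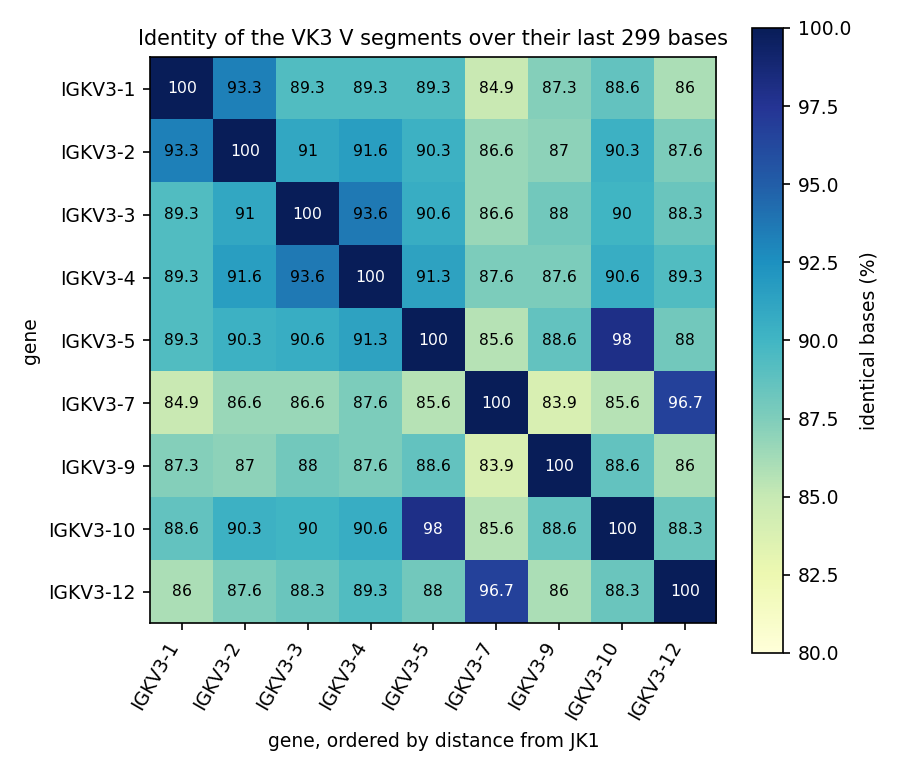
Identity in percent between the V segments of the 9 VK3 genes over their last 299 bases in mm9, each cell being 1 pair and both axes running from the gene nearest to JK1 to the farthest. IGKV3-5 and IGKV3-10 were 98.0% and IGKV3-7 and IGKV3-12 96.7% identical, and all other pairs were between 83.9% and 93.6% identical.

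IGKV3-5 and IGKV3-10 differ at 6 of these bases, which are printed in capitals because within the bases shown they are what distinguishes these genes. Positions are counted from 1 at the first base shown, and the substitutions from IGKV3-5 to IGKV3-10 are G1A, G161T, A184G, A238G, T260C and G284A. The last of them lies 15 bases before the end of the V segment and the one before it 39 bases. IGKV3-5 is shown from chr6:70613591-70613889 and IGKV3-10 from chr6:70522926-70523224.
IGKV3-5: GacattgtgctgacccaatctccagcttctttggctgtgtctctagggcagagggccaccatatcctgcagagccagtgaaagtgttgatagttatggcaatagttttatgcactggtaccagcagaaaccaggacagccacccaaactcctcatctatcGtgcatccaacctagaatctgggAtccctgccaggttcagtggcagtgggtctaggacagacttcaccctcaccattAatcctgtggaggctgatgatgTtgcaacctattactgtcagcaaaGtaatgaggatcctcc
IGKV3-10: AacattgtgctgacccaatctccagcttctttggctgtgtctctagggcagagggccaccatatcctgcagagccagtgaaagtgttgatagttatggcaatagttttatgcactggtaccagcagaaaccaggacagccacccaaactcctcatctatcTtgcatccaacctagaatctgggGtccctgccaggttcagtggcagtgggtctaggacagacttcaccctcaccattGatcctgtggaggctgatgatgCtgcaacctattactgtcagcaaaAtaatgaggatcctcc
How reads that fit both genes were assigned is not given in the sources used here, and the levels of these genes are therefore given separately and summed.

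The depth behind the values differed greatly between the cell types. The deposited values of a library are mostly whole multiples of one step, taken here as 1 counted joint, and by this count the pre-B libraries held 27178 to 56642 joints, the mutant pro-B libraries 1525 to 4549 and the Wapl+/+ pro-B libraries 164 to 2514. Of the 20 libraries, 1 held values of IGKV3-5, IGKV3-10 and IGKV3-12 that were not whole numbers of joints. In any library, 43 of the 163 VK genes had such a value. The members accounted for 2501 to 4760 of these joints in pre-B libraries, for 128 to 365 in mutant pro-B libraries and for 7 to 130 in Wapl+/+ pro-B libraries. The Wapl+/+ pro-B library of replicate 2 stood apart with 164 joints in all, 7 of them at members, and with 5 of the 9 members at 0, where a count of 0 allows a share of up to 1.83%. For the genotypes of pro-B cells, log2 fold changes of the tested members and their summed shares are therefore given with and without this library. Medians of log2 fold changes, the order with distance and the count with the pair summed are given with it only. Before rescaling, the summed values of all VK genes were 4.87 to 6.77 in pre-B and 0.0740 to 0.377 in pro-B libraries, so that the shares below compare the make-up of the joints and not their abundance. The labels do not say that the libraries came from separate mice, and p-values measure the spread between these libraries.

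In Wapl+/+ pre-B cells the family contributed 5.30% ± 0.552 of all joints (SD, n = 4) and its members differed widely in use. IGKV3-2 was the most used with 1.55% ± 0.143 and had rank 18 among the 117 VK genes with any joint. IGKV3-7 (0.774% ± 0.0849), IGKV3-12 (0.749% ± 0.0990), IGKV3-4 (0.689% ± 0.0939) and IGKV3-10 (0.641% ± 0.0742) followed, and each of these overlapped in its library values with the next of them. IGKV3-5 came next with 0.479% ± 0.0569 and IGKV3-1, the gene nearest to JK1, with 0.315% ± 0.0178, neither overlapping with its neighbours in this order. IGKV3-9 (0.0559% ± 0.0119) and IGKV3-3 (0.0388% ± 0.0118) were the least used and overlapped with each other. The level had no order with distance, with a Spearman rho of 0.13 over the 9 genes, which share the libraries and one locus.

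Of the 9 members, 6 rose and none fell in pre-B cells of Wapl∆P1,2/∆P1,2 mice. These were IGKV3-3, IGKV3-4, IGKV3-5, IGKV3-7, IGKV3-10 and IGKV3-12, whereas the members nearest to JK1, IGKV3-1 and IGKV3-2, did not pass the test, nor did IGKV3-9. The filter, a mean of at least 0.05% over the compared libraries, was passed by IGKV3-3 only through the mutant libraries, since its Wapl+/+ mean was 0.0388%, and by the other 8 at the level of either genotype, of which 5 rose. IGKV3-3 was also called with no filter (limma adjusted p = 0.000147). The same 6 had all mutant libraries above all Wapl+/+ libraries. Over all 107 VK genes tested by limma with Benjamini-Hochberg adjustment at 0.05, 21.5% were called higher and 45.8% lower in the mutant, and all mutant libraries lay above all Wapl+/+ libraries in 20.6% and below them in 38.3%. The median log2 fold change was 0.62 over the members and -0.18 over all genes tested. A total of 74 genes had an unadjusted p below 0.05, among them 6 members. The same number of members, 6, was called higher when each library was centred on its median gene, as were 20.6% of all genes tested.

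IGKV3-10, one of the pair with 98.0% identity, changed most. Its share was 0.659%, 0.593%, 0.574% and 0.738% in the Wapl+/+ and 1.34%, 1.70%, 1.54% and 1.48% in the mutant libraries. The groups were well apart, with a 2.37-fold higher mean in the mutant and a log2 fold change of 1.18 ± 0.0938 (SE, limma adjusted p = 3.54e-08, n = 4 and 4), a value on the log2(percentage + 0.05) scale. It moved from rank 64 to rank 18 among all VK genes.

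IGKV3-7 stood at 0.782%, 0.711%, 0.711% and 0.891% in Wapl+/+ and at 1.51%, 1.83%, 1.61% and 1.24% in mutant libraries. Its lowest mutant library was thus above the highest Wapl+/+ library, and its mean was 2.00-fold higher (log2 fold change 0.95 ± 0.107, limma adjusted p = 1.23e-06). IGKV3-12, its nearest relative with 96.7% identity and the member farthest from JK1, had 0.757%, 0.644%, 0.715% and 0.880% against 1.24%, 1.44%, 1.65% and 1.15%. The groups did not overlap here either, and the log2 fold change was 0.83 ± 0.110 (limma adjusted p = 7.60e-06).

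The other 3 members that rose did so by less on this scale. IGKV3-4 rose from 0.689% ± 0.0939 to 1.08% ± 0.137 (log2 fold change 0.62 ± 0.104, limma adjusted p = 7.96e-05) and IGKV3-5 from 0.479% ± 0.0569 to 0.777% ± 0.0826 (0.64 ± 0.0993, limma adjusted p = 3.11e-05). IGKV3-3, which rested on 13 to 50 joints a library, rose from 0.0388% ± 0.0118 to 0.0820% ± 0.00606, a 2.11-fold higher mean that the added 0.05 reduces to a log2 fold change of 0.58 ± 0.116 (limma adjusted p = 0.00037). None of the 3 overlapped between the genotypes. With the experiment numbers of the labels taken as 2 series (starting with 70 and with 161, each with 2 libraries of either genotype), IGKV3-4 had a log2 fold change of 0.88 in the first and of 0.35 in the second, where it missed the threshold (limma adjusted p = 0.0605).

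IGKV3-2, the most used member, had 1.55%, 1.53%, 1.39% and 1.74% in Wapl+/+ and 1.85%, 1.98%, 1.47% and 1.64% in mutant pre-B libraries. IGKV3-1 had 0.330%, 0.307%, 0.293% and 0.329% against 0.349%, 0.419%, 0.307% and 0.295%. Both overlapped between the genotypes, and their log2 fold changes were 0.15 ± 0.0938 (95% interval -0.05 to 0.35, limma adjusted p = 0.154) and 0.10 ± 0.107 (-0.13 to 0.32, limma adjusted p = 0.420). IGKV3-9, with 20 to 52 joints a library, overlapped too (log2 fold change 0.24, 95% interval -0.03 to 0.51, limma adjusted p = 0.108). IGKV3-2 passed the test without mutant replicate 3 (0.23, limma adjusted p = 0.0396) and IGKV3-9 without mutant replicate 4 (0.34, limma adjusted p = 0.0383).

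**Figure D2:**
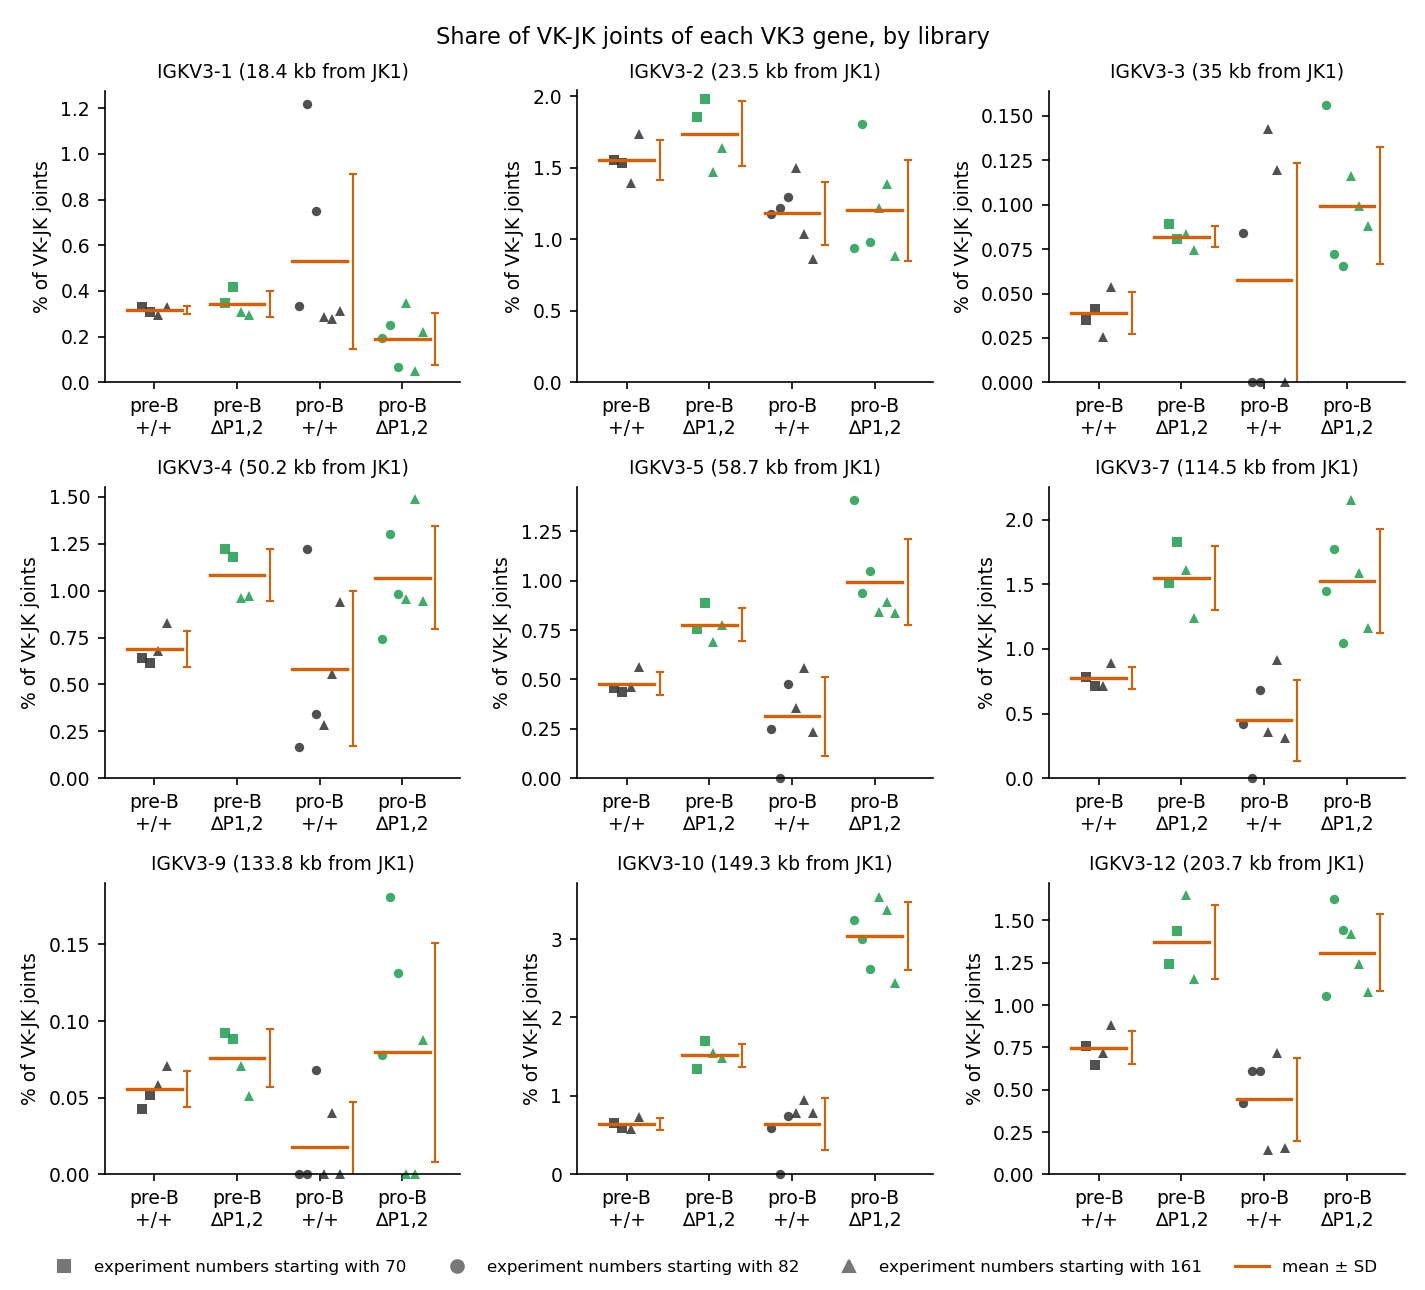
Share of each VK3 gene in percent of all VK-JK joints (vertical axis, scaled for each gene) in every library of the 4 groups, with the mean and SD in orange (SD bars that reach below 0 are cut there) and the symbol giving the first digits of the experiment number. The mutant libraries (green) lie above the Wapl+/+ libraries (grey) of the same cell type in pre-B and in pro-B cells at IGKV3-5, IGKV3-7, IGKV3-10 and IGKV3-12. They overlap with the Wapl+/+ libraries in both cell types at IGKV3-1, IGKV3-2 and IGKV3-9.

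In pro-B cells, 4 of the 8 members that passed the filter rose in the mutant, namely IGKV3-5, IGKV3-7, IGKV3-10 and IGKV3-12, and none fell. The same 4 had all 6 mutant libraries above all 6 Wapl+/+ libraries. Of the 104 VK genes tested here, 12.5% were called higher and 13.5% lower, and all mutant libraries were above all Wapl+/+ libraries in 8.65% and below them in 6.73%. IGKV3-9 did not pass the filter. The median log2 fold change was 1.35 over the 8 members and -0.26 over all genes tested, and 6 members, including IGKV3-1 with a negative value, had an unadjusted p below 0.05, as did 40 of all 104 genes. Centred on the median gene of each library, 5 members and 16.3% of all genes tested were called higher. Without the shallow Wapl+/+ replicate 2, 5 were called higher and 1 lower, against 16.3% and 30.8% of all genes tested. With a pseudocount of 0.01 in place of 0.05, IGKV3-5 and IGKV3-7 missed the threshold (limma adjusted p = 0.0540 for both), as they did with Holm adjustment (0.176 and 0.144). Either setting left 2 members called, and the share of all genes called with it is not given here.

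IGKV3-10 was again the member with the largest difference over all libraries. It was 0% to 0.955% of joints in the 6 Wapl+/+ libraries with a median of 0.767%, and 2.44% to 3.54% with a median of 3.12% in the 6 mutant libraries. Its mean was 4.72-fold higher in the mutant (3.04% ± 0.433 against 0.643% ± 0.336), and the log2 fold change was 2.58 ± 0.561 (limma adjusted p = 0.00468). The value of 0% belonged to the shallow library, without which the log2 fold change was 1.91 (limma adjusted p = 7.81e-10). It was 3.35 in the series of experiment numbers starting with 82 and 1.82 in that starting with 161, where IGKV3-12 had the larger value of 2.04. With rank 7 among the 114 VK genes with any joint, IGKV3-10 was one of the most used genes of mutant pro-B cells.

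IGKV3-7 was 0% to 0.915% (median 0.388%) in Wapl+/+ and 1.05% to 2.15% (median 1.52%) in mutant pro-B libraries, with a log2 fold change of 2.06 ± 0.541 (limma adjusted p = 0.0173) that was 1.49 without the shallow library. IGKV3-12 was 0.143% to 0.716% (median 0.515%) against 1.05% to 1.63% (median 1.33%), with a log2 fold change of 1.65 ± 0.361 (limma adjusted p = 0.00468) that was 1.77 without it. IGKV3-5 was 0% to 0.557% (median 0.304%) against 0.835% to 1.41% (median 0.916%), with a log2 fold change of 1.84 ± 0.495 (limma adjusted p = 0.0189) that was 1.34 without it. At all 3 genes the lowest mutant library was above the highest Wapl+/+ library. The Wapl+/+ values rested on 0 to 23 joints a library at IGKV3-7, 1 to 18 at IGKV3-12 and 0 to 14 at IGKV3-5. The 0% at IGKV3-7 and IGKV3-5 was that of the shallow library, where it allows up to 1.83%. For that library the separation at these genes is therefore not shown. The log2 fold changes of IGKV3-7, IGKV3-12 and IGKV3-5 were 2.48, 1.25 and 2.55 in the series starting with 82. They were 1.65, 2.04 and 1.13 in that starting with 161. With 3 libraries of either genotype in each series, limma called none of the members in the first alone, where 0% of all 103 genes were called in either direction and 5 members and 24 genes in all had an unadjusted p below 0.05. In the second it called 4 members higher, as 9% of all 100 genes were, and none lower, as 11% were.

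IGKV3-4 was 0.168% to 1.22% (median 0.449%) in Wapl+/+ and 0.742% to 1.49% (median 0.971%) in mutant pro-B libraries, and these ranges overlapped. Its log2 fold change of 1.05 ± 0.391 missed the threshold (limma adjusted p = 0.0582), and was 1.30 without the shallow library (limma adjusted p = 0.000742). The highest Wapl+/+ value, 1.22%, rested on 2 joints of that library. IGKV3-3 was at 0 in 3 of 6 Wapl+/+ libraries and had at most 3 joints in the others, against 1 to 4 joints in the mutant (log2 fold change 0.70, 95% interval -0.26 to 1.66, and 0.53 without the shallow library). IGKV3-9 was at 0 in 4 Wapl+/+ and 2 mutant libraries, and its means of 0.0180% and 0.0796% rested on at most 1 and 5 joints a library.

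The 2 members nearest to JK1 did not rise in pro-B cells. IGKV3-2 was 0.862% to 1.50% (median 1.20%) in Wapl+/+ and 0.879% to 1.81% (median 1.10%) in mutant libraries, which overlapped almost entirely, with a log2 fold change of 0.00 ± 0.224 (95% interval -0.47 to 0.47, limma adjusted p = 0.997) that was 0.0137 without the shallow library. IGKV3-1 was 0.278% to 1.22% (median 0.325%) in Wapl+/+ and 0.0496% to 0.348% (median 0.207%) in the mutant. These ranges overlapped as well, the log2 fold change was -1.24 ± 0.477 (limma adjusted p = 0.0676), and the values rested on 2 to 11 joints in Wapl+/+ and 1 to 12 in mutant libraries. The highest value, 1.22%, was again 2 joints of the shallow library, and without it the log2 fold change was -0.97 (limma adjusted p = 0.0475).

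The differences at the single genes, plotted against their distance from JK1, were at or below 0.15 for IGKV3-1 and IGKV3-2 and above 0 at every tested gene beyond them. In pre-B cells the log2 fold change was at most 0.15 at the members within 23.5 kb of JK1, between 0.58 and 0.64 at IGKV3-3, IGKV3-4 and IGKV3-5, and between 0.83 and 1.18 at IGKV3-7, IGKV3-10 and IGKV3-12. IGKV3-9 at 133.8 kb was outside this order with 0.24. By the ratio of mean percentages, without the added 0.05, IGKV3-3 (2.11-fold) was above IGKV3-7 (2.00-fold) and IGKV3-12 (1.83-fold). In pro-B cells it was -1.24 at IGKV3-1, which was larger in size than at IGKV3-3 and IGKV3-4, 0.00 at IGKV3-2 and 0.70, 1.05, 1.84, 2.06, 2.58 and 1.65 from IGKV3-3 to IGKV3-12 (IGKV3-9 not tested). The Spearman rho between log2 fold change and distance was 0.77 over the 9 genes in pre-B and 0.86 over the 8 genes in pro-B cells, as a description of genes that share libraries, sequence and locus. For the ratio of mean percentages, rho was 0.57 in pre-B and 0.83 in pro-B cells over the 9 genes. Neither order was strict, since IGKV3-10 and not the farther IGKV3-12 had the largest value in both, except in the pro-B series starting with 161.

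**Figure D3:**
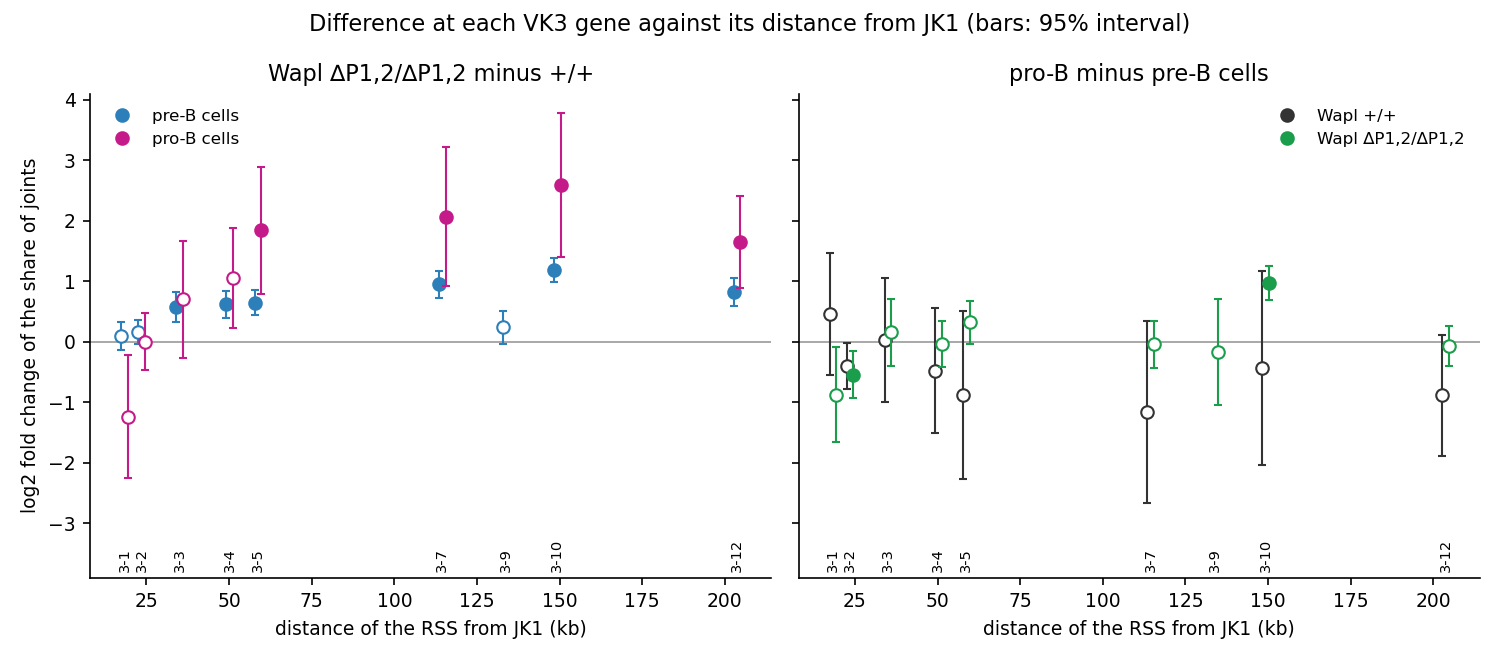
Log2 fold change of the share of joints at each VK3 gene with its 95% interval, against the distance of its RSS from JK1 in kb, for the mutant minus Wapl+/+ (left) and for pro-B minus pre-B cells (right), filled circles having a limma adjusted p below 0.05 and the circles of a gene being moved slightly to either side of its distance. On the left, IGKV3-1 and IGKV3-2 lie at or below 0.15 (IGKV3-1 at -1.24 in pro-B cells), while IGKV3-7, IGKV3-10 and IGKV3-12 lie between 0.83 and 1.18 in pre-B and between 1.65 and 2.58 in pro-B cells. On the right, IGKV3-10 in mutant cells (0.97) is the only filled circle above 0.

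The summed share of the family was higher in the mutant in both cell types. In pre-B cells it was 5.25%, 4.94%, 4.91% and 6.09% in Wapl+/+ and 8.46%, 9.61%, 8.38% and 7.69% in mutant libraries, with means of 5.30% ± 0.552 and 8.54% ± 0.794. In pro-B cells it was 3.44% to 5.17% (median 4.06%) against 7.74% to 10.9% (median 9.68%), with means of 4.22% ± 0.720 and 9.51% ± 1.27, the former being 4.21% ± 0.805 without the shallow library. The genotypes did not overlap in either cell type, with or without that library, and no test was made on sums over the members. The difference of the means was 3.94 points in the series starting with 70 and 2.54 in that starting with 161 for pre-B cells, and 5.30 and 5.27 points in those starting with 82 and 161 for pro-B cells.

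In pre-B cells, 3.03 of the 3.24 points of this difference were found in the 7 members from IGKV3-3 to IGKV3-12. In pro-B cells their difference of 5.61 points exceeded the 5.29 of all 9, IGKV3-1 with IGKV3-2 differing by -0.32. The 7 members summed to 3.43% ± 0.412 in Wapl+/+ and 6.46% ± 0.609 in mutant pre-B cells, and to 2.51% ± 0.774 (2.64% ± 0.781 without the shallow library) and 8.12% ± 0.951 in pro-B cells, without overlap between the genotypes. IGKV3-1 and IGKV3-2 together gave 1.87% ± 0.157 and 2.08% ± 0.277 in pre-B cells and 1.71% ± 0.476 (1.57% ± 0.352 without the shallow library) and 1.39% ± 0.387 in pro-B cells, and overlapped in both. Within the pre-B series starting with 70 this sum was 1.86% and 2.30% without overlap, and within that starting with 161 it was 1.88% and 1.86% with overlap. The 6 neighbours beyond IGKV3-12, which start 265.1 kb from JK1, went the other way in their sum, from 4.68% ± 0.124 to 3.87% ± 0.537 in pre-B cells, where the genotypes did not overlap, and from 2.70% ± 0.577 to 1.14% ± 0.508 in pro-B cells, where they did. Without the shallow library the Wapl+/+ pro-B sum of the neighbours was 2.87% ± 0.434 and did not overlap. Of these 6 genes, 4 fell in pre-B cells, where 45.8% of all genes tested were called lower, and 3 in pro-B cells, where 13.5% were. None rose, and in pre-B cells IGKV6-15 and IGKV6-17 had log2 fold changes of -0.02 and 0.02.

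**Figure D4:**
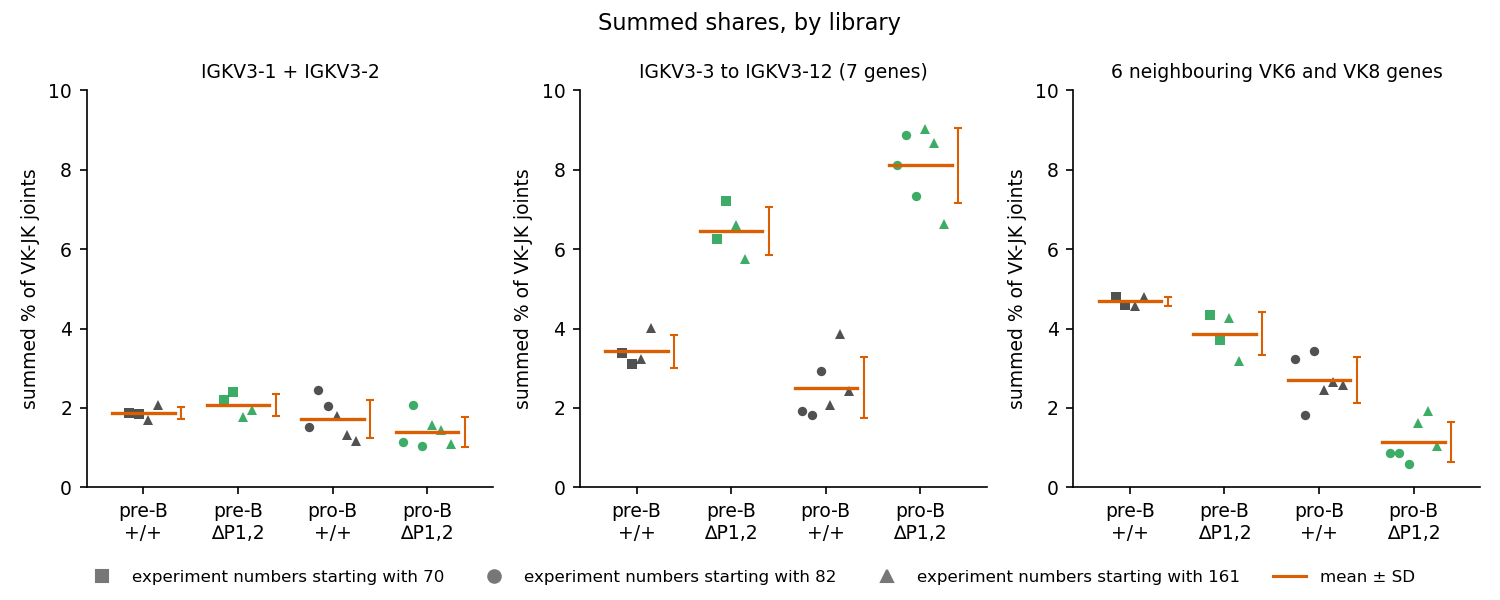
Summed share in percent of all VK-JK joints in every library, for IGKV3-1 with IGKV3-2, for the other 7 VK3 genes and for the 6 neighbouring VK6 and VK8 genes, with the mean and SD in orange and the symbol giving the first digits of the experiment number. The 7 genes from IGKV3-3 to IGKV3-12 lie between 5.75% and 7.20% in mutant and between 3.09% and 4.02% in Wapl+/+ pre-B libraries, whereas IGKV3-1 with IGKV3-2 overlap between the genotypes.

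The make-up of the family changed with genotype. IGKV3-1 and IGKV3-2 supplied 35.4% ± 1.53 of the joints of the family in Wapl+/+ pre-B cells and 24.4% ± 2.13 in the mutant, where the lowest Wapl+/+ library had 33.9% and the highest mutant library 26.0%. In pro-B cells they supplied 41.1% ± 11.1 in Wapl+/+ (25.4% to 57.1%) and 14.5% ± 2.36 in mutant libraries (12.2% to 18.8%), again without overlap. Without the shallow library, which held the highest share, the Wapl+/+ value was 37.9% ± 8.68, also without overlap. IGKV3-10 alone made up 12.1% ± 0.340 of the family in Wapl+/+ and 17.8% ± 1.45 in mutant pre-B cells. In mutant pro-B cells it reached 32.0% ± 2.64, against 15.5% ± 7.93 in Wapl+/+, or 18.5% ± 2.64 without the shallow library, which had none. The shares of IGKV3-4 and IGKV3-5 in the family were 13.0% and 9.05% in Wapl+/+ and 12.7% and 9.12% in mutant pre-B cells.

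**Figure D5:**
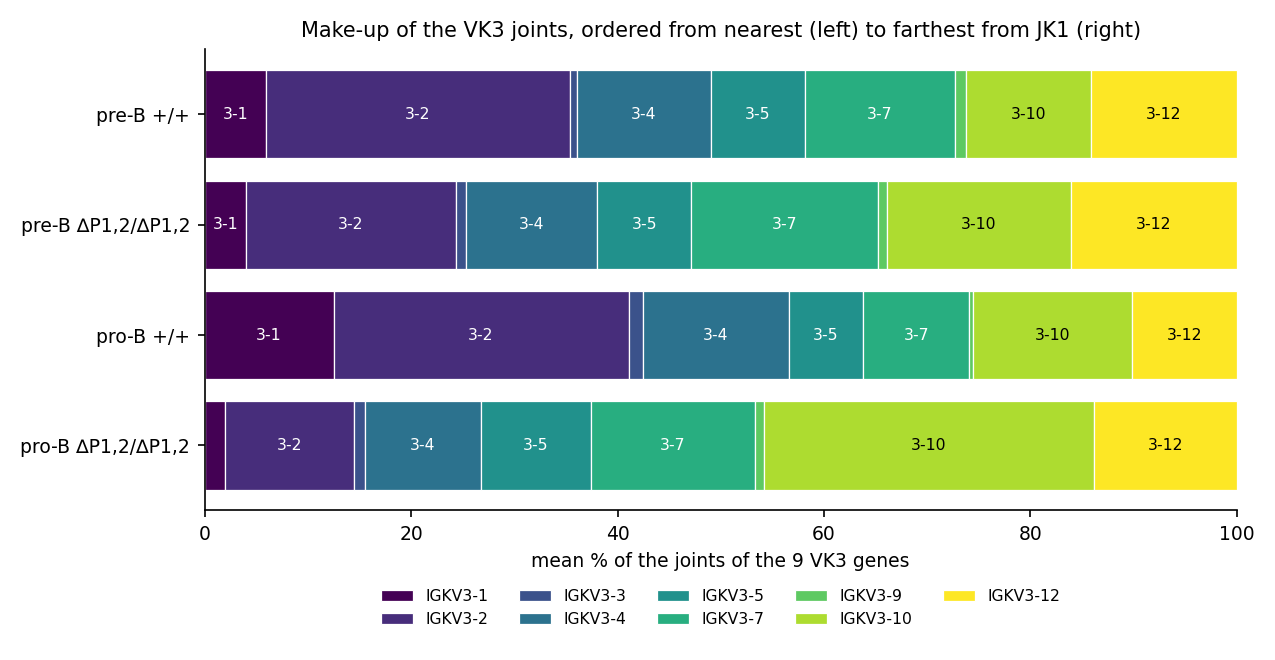
Mean share of each VK3 gene in percent of the joints of the 9 VK3 genes (horizontal axis) in each of the 4 groups, stacked from the gene nearest to JK1 on the left to the farthest on the right. IGKV3-1 with IGKV3-2 take 35.4% in Wapl+/+ and 24.4% in mutant pre-B cells and 41.1% and 14.5% in pro-B cells, and IGKV3-10 takes 32.0% in mutant pro-B cells.

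IGKV3-5 and IGKV3-10, which differ at the 6 bases printed above, did not keep a constant ratio. The joints of IGKV3-10 were 1.25 to 1.44 times those of IGKV3-5 in the 4 Wapl+/+ pre-B libraries and 1.77 to 2.24 times in the 4 mutant pre-B libraries, with means of 1.34 ± 0.0820 and 1.96 ± 0.199. In pro-B cells the ratio was 1.57 to 3.33 in the 5 Wapl+/+ libraries with any IGKV3-5 joint and 2.31 to 4.21 in the 6 mutant libraries, which overlapped. Summed, the pair rose without overlap from 1.12% ± 0.127 to 2.30% ± 0.208 in pre-B and from 0.956% ± 0.519 (1.15% ± 0.250 without the shallow library) to 4.03% ± 0.503 in pro-B cells. Counting the pair as 1 gene left 5 members called higher in pre-B cells, where 20.8% of all genes tested were, and 3 in pro-B cells, where 10.7% were.

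When Wapl+/+ pro-B cells were compared with Wapl+/+ pre-B cells, none of the 8 members that passed the filter was called by limma in either direction, and 1 (IGKV3-2) had an unadjusted p below 0.05, as did 35 of all 105 genes tested. Of the 105 VK genes tested, 10.5% were called higher and 8.57% lower in pro-B cells, and in 10.5% and 24.8% all pro-B libraries lay above or below all pre-B libraries, whereas every member overlapped. The median log2 fold change over all genes was -0.65 and that over the members -0.45. IGKV3-2 was 1.18% ± 0.218 in pro-B against 1.55% ± 0.143 in pre-B cells (log2 fold change -0.40, 95% interval -0.78 to -0.01, limma adjusted p = 0.133). IGKV3-12 was 0.443% ± 0.247 against 0.749% ± 0.0990 (-0.89, 95% interval -1.89 to 0.11), and was called lower without the shallow library (-1.01, limma adjusted p = 0.0425). IGKV3-10 had near-equal means in both cell types, 0.643% ± 0.336 and 0.641% ± 0.0742, with 1 pro-B library at 0. The summed share was 4.22% ± 0.720 in pro-B and 5.30% ± 0.552 in pre-B cells, and overlapped. In either genotype, experiment numbers starting with 70 are of pre-B and those starting with 82 of pro-B libraries only. Cell type and series cannot be told apart there. Within the series starting with 161, the log2 difference was -0.48 for IGKV3-2 and -1.43 for IGKV3-12. It was 0.34 there for IGKV3-10 and -0.08 for IGKV3-1, against -0.43 and 0.46 over all libraries.

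In mutant cells the same comparison called IGKV3-10 higher and IGKV3-2 lower in pro-B cells, 1 of 9 members in each direction. Of the 100 VK genes tested, 12% were called higher and 42% lower, and in 33% all pro-B libraries lay below all pre-B libraries, which no member did. The median over all genes was -0.51 on the log2 scale. IGKV3-10 rose from 1.52% ± 0.149 in pre-B to 3.04% ± 0.433 in pro-B cells, all 6 pro-B libraries lying above the 4 pre-B libraries (as in 8% of all genes tested), with a log2 fold change of 0.97 ± 0.134 (limma adjusted p = 3.41e-05) that was 1.00 within the series starting with 161. IGKV3-2 fell from 1.74% ± 0.226 to 1.20% ± 0.353 with overlapping libraries (log2 fold change -0.55 ± 0.183, limma adjusted p = 0.0185), a call that was lost with the series as a covariate (limma adjusted p = 0.238). IGKV3-1 was 0.343% ± 0.0562 and 0.189% ± 0.114 (-0.88, limma adjusted p = 0.0578). IGKV3-7 (1.55% and 1.53%), IGKV3-12 (1.37% and 1.31%) and IGKV3-4 (1.08% and 1.07%) had near-equal means. Centred on the median gene of each library, 6 members were called higher and 0 lower in this comparison, against 33% and 19% of all genes tested, with IGKV3-2 at 0.06. This comparison and that of the genotypes share the mutant libraries.

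The genotype effect of pro-B cells was also set against that of pre-B cells in one fit of all 20 libraries. None of the 9 members was called by limma (lowest adjusted p = 0.496), and 1, IGKV3-1, had an unadjusted p below 0.05, as did 9 of all 106 genes. Of the 106 VK genes tested, 0% were called higher and 1.89% lower. The difference was 1.40 for IGKV3-10 (95% interval -0.18 to 2.98) and -1.33 for IGKV3-1 (-2.58 to -0.09). Without the shallow Wapl+/+ pro-B library, IGKV3-10 passed the test with a difference of 0.73 (limma adjusted p = 0.0427). It also passed when percentages were used without a logarithm, with a difference of 1.51 points (limma adjusted p = 0.00218). The log2 fold changes of the 2 cell types were thus larger in pro-B cells at most members by value, without a difference that passed the test with all libraries on the log2 scale.

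Among the 97 other VK genes with a mean of at least 0.05%, IGKV4-79 (r = 0.817), IGKV12-89 (r = 0.797) and IGKV1-88 (r = 0.718) followed the summed share of the family most closely on the log2 scale over the 20 libraries. These correlations describe libraries in 4 groups that share the differences between groups, and no p is given. For the 6 neighbours r lay between -0.636 (IGKV6-13) and -0.0125 (IGKV6-15). The 4 other VK3 rows of the tables hardly contributed: IGKV3-6, IGKV3-11 and IGKV3-12-1 had no joint in any of the 20 libraries, and IGKV3-8 had 4 to 10 joints in each pre-B library, 0 in all Wapl+/+ pro-B libraries and at most 2 in mutant pro-B libraries.

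No H3K27ac peak of Rag1(Cre/Cre) pro-B cells lay in the 185.9 kb from the start of IGKV3-12 to the end of IGKV3-1. H3K27ac is a histone mark of active enhancers and promoters. The single peak between IGKV3-12 and JK1, at chr6:70658646-70661136 (mm9), began 4.5 kb after IGKV3-1 and ended 11.4 kb before JK1. It was the peak nearest to each of the 9 members, at 9.6 kb from IGKV3-2 and 189.8 kb from IGKV3-12, so that distance from it and distance from JK1 put the members in the same order and cannot be told apart. The score of every deposited peak is 0, and peaks were not ranked.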

How the data were processed

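VDJ-seq values of 20 Igk libraries were used. The authors captured joints with JK primers, used UMI adapters and MiSeq sequencing, and deposited 1 normalized score per VK gene and library (R 3.3.3 per the labels). The total behind this score and the treatment of reads fitting several genes are not given in the sources used here. For H3K27ac, the authors deposited peaks on mm9 with a score of 0 each. Scores were divided by their sum per library and multiplied to 100. The largest step of which at least 80% of a library's scores were whole multiples (tolerance 0.001) was taken as 1 joint, all scores being whole sixths of it, and limits from it cover counting error only. Genes whose mean share reached 0.05% in the compared libraries were tested on log2(percentage + 0.05) with limma 3.58.1 (R 4.3.3, trend) and Benjamini-Hochberg adjustment at 0.05 over all genes, with only the groups compared in each fit, and with 1 interaction fit of all groups. The script was tested on simulated data. Sequences were read from NCBIM37 (mm9) with GENCODE M1 by Python 3.11.15. Named genes are the 9 members, the 4 other VK3 rows, the 6 functional genes next to them on the distal side and the 3 genes most correlated with the family's sum. Members, lists and tests were chosen with earlier results of these data known. Alternatives covered pseudocounts, filters, scale, adjustment, series, weights, denominator, centring, the pair summed and each library left out. Igh libraries and Hi-C samples were not used here.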

Additional observations from a re-analysis of the deposited data

How the results depend on the processing

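The alternatives gave 848 values for 38 results. Of these values, 779 kept direction and side of the threshold, stayed within 1.5 times the count or, for summed shares, moved by less than the larger group SD. Summed shares kept their sign throughout. Members called higher in mutant pre-B cells numbered 5 to 8. In pro-B cells the 4 higher calls became 2 with a pseudocount of 0.01, 2 with Holm adjustment and 0 in the series starting with 82 alone, and 1 member was called lower with array weights. Leaving out libraries gave 4 to 5 higher and 0 to 1 lower calls there. In Wapl+/+ cells, 3 members were called lower in pro-B cells with array weights, and 0 to 1 with a library left out. In mutant cells the 1 lower call became 2 with a pseudocount of 0.2, without a logarithm or with array weights, and 0 with Holm adjustment, with the series as a covariate or alone (161) and after centring, which gave 6 higher calls. It was 0 without pre-B mutant replicate 1 or 2 (IGKV3-2 lost) and 2 without pro-B mutant replicate 2 or 4 (IGKV3-1 gained). For the difference of genotype effects, 1 member was called higher without a logarithm, and 0 to 1 with a library left out. Beyond those given above, the shares of all genes called under these alternatives are not given here. The counts of members in this paragraph therefore do not set the members apart from other VK genes. Among these 38 results, a single value changed sign at IGKV3-2 in pro-B cells (-0.0679 with array weights, -0.0478 in the series starting with 82 alone, -0.12 to 0.0781 with a library left out). In pre-B cells of the series starting with 161, the sign changed at IGKV3-1 (-0.0383), IGKV3-2 (-6.94e-05) and IGKV3-9 (-0.0487). At IGKV3-2 in mutant cells it changed after centring (0.0585). Apart from the settings whose construction changes the samples or the scale, the cause was not tested. Depth limits Wapl+/+ pro-B libraries most, since a count of 0 allows shares of 0.119% to 1.83% there. No paired analysis was possible because the labels give no replicate numbers, and those used here follow accession order.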
